A study of Danio rerio with 12 samples.

Results

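Chemokine ligand and chemokine receptor genes were followed in macrophages and microglia sorted from the eyes of zebrafish larvae, after genetic ablation of the retinal pigment epithelium, or RPE, a pigmented sheet that supports the photoreceptors, and in larvae that kept it. The genes were chosen by name and level. Their deposited symbol begins with ccl, cxcl, ccr, cxcr, xcr, ackr or cx3cr, the names ccl20a.3, ccr6a, ccr6b, ccl34b.1, cxcl8a and cx3cr1 were left out, and their level was at least 1 TPM (a transcript level normalised for gene length and sequencing depth) in at least 3 of 12 libraries. Of 25281 genes, 72 had such a name and 42 of these met the TPM minimum, 27 ligand genes (17 CC and 10 CXC) and 15 receptor genes (8 CC, 5 CXC, 1 XC and 1 atypical).

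The libraries fall into 4 groups of 3. Ablated larvae received 10 mM metronidazole (MTZ+ in the labels) for 24 h, between 5 and 6 days post-fertilisation, and were sampled 2 or 4 days post-injury (dpi). Unablated larvae (MTZ-) received no drug and were sampled at the same times, so an effect of the drug and an effect of the ablation cannot be told apart. Larvae of all 4 groups had been kept in 1.5X phenylthiourea, which blocks pigmentation, from 0.25 to 5 days post-fertilisation. Each library came from a sort of at most 1000 mCherry-positive cells of dissociated eyes. The sources used here name neither the transgenes behind the mCherry signal and the ablation nor whether a library pools several larvae or clutches. The p-values therefore measure only how far these libraries spread, which may be technical. Time goes with larval age and with the date in the library titles, and neither can be told apart from it.

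Libraries held 19791633 to 38935355 counts over 16299 to 19601 detected genes. The macrophage gene mpeg1.1 stood between 929.9 and 2000 TPM in all 12 libraries. Some sorts also held photoreceptor RNA. The summed TPM of 24 photoreceptor genes reached 122300 in replicate 1 and 99950 in replicate 2 of the unablated libraries at 2 dpi, 33200 in ablated replicate 2 at 4 dpi, 11910 in ablated replicate 1 at 2 dpi and at most 5766 in the other 8. The sum of 21 epithelial genes was 390 to 2151 TPM in ablated and 535 to 8871 TPM in unablated libraries at 2 dpi, and 833 to 1343 TPM against 3306 to 7175 TPM at 4 dpi. The sum of 14 genes on a neutrophil list was 1146 to 1364 TPM in ablated and 359 to 536 TPM in unablated libraries at 2 dpi, and 1348 to 1491 TPM against 861 to 1038 TPM at 4 dpi, while the defining neutrophil genes mpx and lyz reached at most 16.8 and 1.15 TPM in any library. Whether the RNA of the epithelial and neutrophil lists came from other cells or from the sorted macrophages was not tested. In these bulk libraries fewer cells of a type and less RNA per cell cannot be told apart.

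Chemokines are small secreted proteins that attract leukocytes along gradients. CC and CXC ligands are named for the spacing of their first cysteines, and most act through G protein-coupled receptors of the matching class. Atypical receptors bind chemokines without classical G protein signalling and remove them. Macrophages and microglia both respond to chemokines and secrete them, and in zebrafish several of the ligand and receptor families are expanded into neighbouring copies on a chromosome. Members here lay on 14 chromosomes of GRCz11, with 8 CC ligand genes on chromosome 25 and 6 receptor genes on chromosome 16.

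At both times the ligand RNA of sorts from ablated eyes was made up differently. The CXC ligand cxcl19 took 41.0%, 33.9% and 1.37% of all ligand TPM in ablated libraries at 2 dpi, against 81.1%, 71.9% and 70.1% in unablated libraries. At 4 dpi its share was 39.2%, 11.68% and 23.9% in ablated and 84.7%, 80.1% and 81.4% in unablated libraries. The CC ligand ccl34a.4 took 46.2%, 49.98% and 67.4% in ablated and 9.18%, 8.38% and 6.94% in unablated libraries at 2 dpi, and 12.5%, 32.3% and 38.5% against 5.20%, 2.29% and 4.397% at 4 dpi. For either gene the shares of ablated and unablated libraries did not overlap at either time. Both shares are parts of the same sum, so a higher ccl34a.4 level by itself lowers the cxcl19 share. The cxcl19 levels themselves overlapped at 2 dpi, as given below. These shares were looked at after the levels had been seen and are given as a description, without a test.

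**Figure D1:**
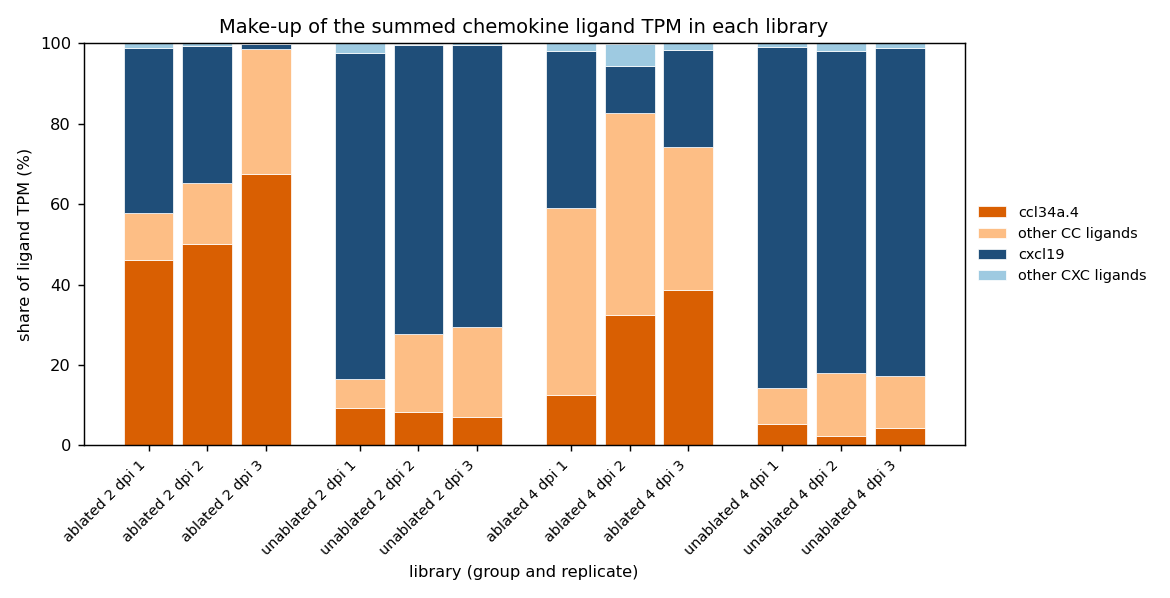
Share of the summed chemokine ligand TPM (y axis, percent) held by ccl34a.4, the other CC ligands, cxcl19 and the other CXC ligands in each of the 12 libraries (x axis). The cxcl19 share is 1.37% to 41.0% in the ablated and 70.1% to 84.7% in the unablated libraries.

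The summed level of CC ligand genes was higher in ablated libraries. They reached 2234, 2687 and 1895 TPM in ablated libraries at 2 dpi, against 514, 518 and 869.6 TPM in unablated libraries. At 4 dpi their sum was 1175, 1422 and 1889 TPM in ablated and 547, 404 and 419.8 TPM in unablated libraries. Without ccl34a.4 the sums at 2 dpi overlapped, at 450.0, 632.0 and 599.0 TPM in ablated and 228.5, 361.1 and 665.4 TPM in unablated libraries, and those at 4 dpi did not, at 925.0, 866.1 and 909.9 TPM against 349.5, 352.9 and 313.5 TPM. The differences with ccl34a.4 included were of the same direction as that of the neutrophil list above, whose part in them was not tested. Receptor genes together spanned a narrower range, 1370 to 1768 TPM in ablated and 1178 to 1293 TPM in unablated libraries at 2 dpi, and 2309 to 2458 TPM against 1939 to 2140 TPM at 4 dpi. Their sums were thus higher in ablated libraries without overlap at both times. Sums of all ligand genes, CC and CXC, overlapped at both times. They were 3862, 4112 and 1923 TPM in ablated and 3114, 1876 and 2945 TPM in unablated libraries at 2 dpi. At 4 dpi they were 1994, 1721 and 2541 TPM against 3808, 2236 and 2418 TPM.

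Tested gene by gene at 2 dpi with edgeR's quasi-likelihood test and Benjamini-Hochberg adjustment over all genes, 0 of the 35 members tested passed an adjusted p of 0.05, as did 0.0% of the 16048 genes tested (0 genes). At an unadjusted p under 0.05 stood 8 members, against 16.8% of all genes tested. DESeq2 called 3 of the 22 members to which it gave an adjusted p (ccl34a.4, ccr12b.2 and ccl39.5), against 11.3% of all genes, and limma voom called 2 of 35 (ccl34a.4 and ccr12b.2), against 6.94%. Below, a member is said to have passed by this edgeR test, fitted on the 6 libraries of its time, unless another tool is named. The test and the overlap comparisons did not use the title date that same-numbered libraries share at 2 dpi. With the replicate number as a block in edgeR, 0 members and 0 genes in all passed at 2 dpi. The adjusted p of ccl34a.4 and that of ccr12b.2 were then 0.1 each. Ablated and unablated levels did not overlap for 9 members that were higher (all genes: 22.1%) and 2 that were lower (all genes: 6.35%). The median log2 fold change of members was 0.37, against -0.12 for all genes tested.

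At 4 dpi 1 of 41 members tested passed, ccl39.5, which was higher in ablated libraries. Over all 16313 genes tested 3.71% passed, 1.83% as higher. DESeq2 called 12 of 41 members, against 14.4% of all genes, and limma voom 6 of 41, against 9.5%. At an unadjusted p under 0.05 stood 13 members, against 20.7% of all genes. Levels did not overlap for 19 members that were higher (all genes: 15.2%) and 3 that were lower (all genes: 15.2%). Among these, ccl39.1 and cxcl11.5 reached 1 TPM only in ablated libraries and cxcl12a only in unablated ones. They met the TPM minimum through those libraries alone, so their sides are not independent of it. The median log2 fold change was 0.69 for members and -0.04 for all genes tested. Among 35 members tested at both times, 8 were higher without overlap at both (all genes: 10.7%) and 0 were lower without overlap at both (all genes: 2.09%). The 8 were the ligands ccl34a.3, ccl34a.4, ccl39.3 and ccl39.5 and the receptors ccr12a, ccr12b.1, ccr12b.2 and cxcr3.2.

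**Figure D2:**
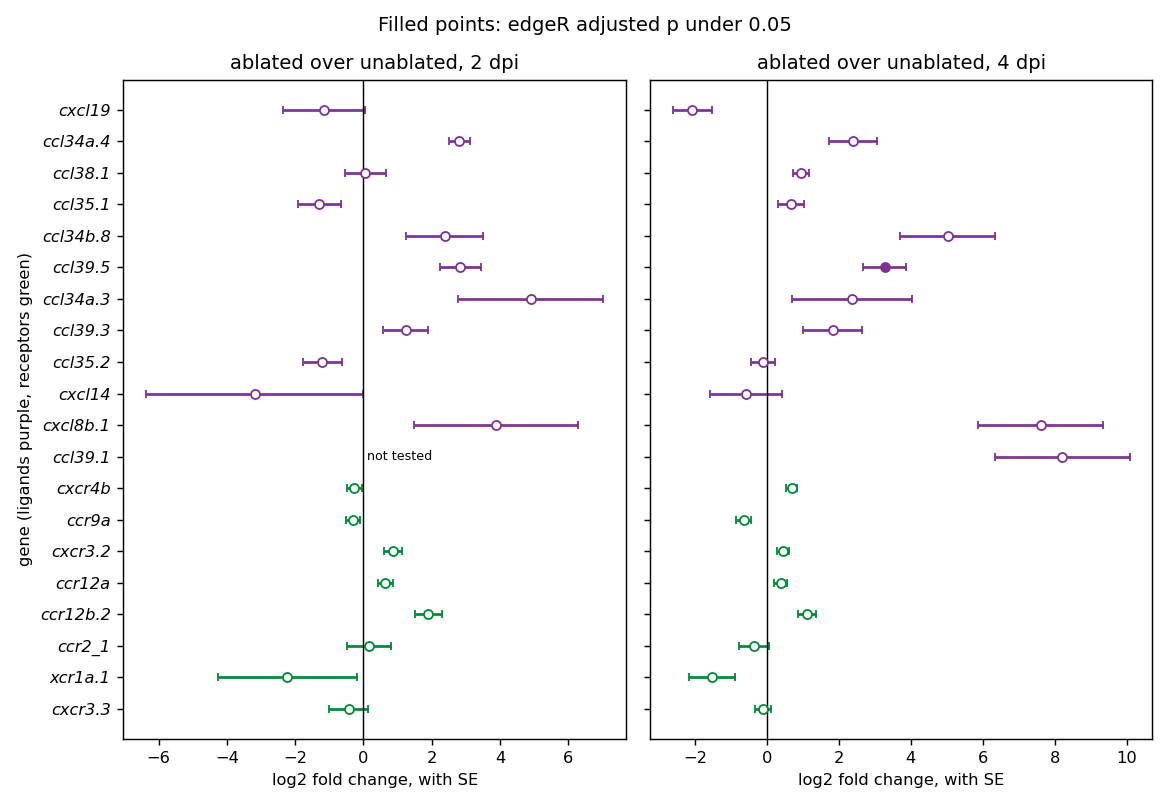
Log2 fold change of ablated over unablated libraries (x axis) at 2 dpi (left) and 4 dpi (right) for the 20 members given in full (y axis). Points are edgeR estimates, bars are 1 SE, and the only filled point, an adjusted p under 0.05, is ccl39.5 at 4 dpi (3.27).

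Among the CXC ligands, cxcl19 (chromosome 7, 7806682 to 7810348) was the most abundant ligand gene in unablated sorts. At 2 dpi it had 1584, 1393 and 26.3 TPM in ablated and 2524, 1348 and 2063 TPM in unablated libraries. The groups overlapped, and ablated replicate 3 lay far below the other 5 libraries. Its 4 dpi levels were 781, 201 and 608 TPM in ablated and 3223, 1790 and 1969 TPM in unablated libraries, a log2 fold change of -2.07 (SE 0.55) with an adjusted p of 0.0974. Every ablated library was below every unablated one at 4 dpi, and the difference did not pass with edgeR, although DESeq2 and limma voom called it (adjusted p = 4.29e-05 and 0.0334) and so did edgeR without ablated replicate 2 (0.0272).

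The gene cxcl8b.1, a homologue of interleukin 8, which attracts neutrophils through cxcr1 and cxcr2 in zebrafish, lies on the chromosome of cxcl19 (7839612 to 7845540), with cxcl8b.3 between them. Its level was 1.33, 55.6 and 10.3 TPM in ablated libraries at 4 dpi and 0.22, 0 and 0.073 TPM in unablated libraries. These levels rest on 917 counts in the 3 ablated libraries and 4 counts in the 3 unablated ones. All ablated libraries were higher, replicate 2 most of all, which is also the 4 dpi library highest in photoreceptor RNA, whose part in the level was not tested. The difference did not pass with edgeR (log2 fold change 7.60, SE 1.74, adjusted p = 0.0667) or limma voom (0.337), and it passed with DESeq2 (9.55e-06) and with limma on log2(TPM + 0.1) (0.0387). At 2 dpi the level was 16.6, 7.79 and 0 TPM in ablated and 1.04, 0.461 and 0 TPM in unablated libraries, and the groups overlapped. Its receptor genes cxcr1 and cxcr2 missed the TPM minimum and reached at most 1.99 and 0.522 TPM.

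The 3 kept cxcl11 genes, ligands of cxcr3 receptors, were low. In ablated libraries at 4 dpi cxcl11.5 had 12.8, 6.05 and 4.54 TPM, against 0, 0 and 0.974 TPM in unablated libraries (log2 fold change 4.58, SE 1.84, adjusted p = 0.228). The overlapping genes cxcl11.6 and cxcl11.7, whose reads cannot be told apart by position alone, averaged 9.76 and 3.12 TPM in ablated and 4.23 and 0.455 TPM in unablated libraries at that time. No cxcl11 gene passed with edgeR at either time, and levels did not overlap at 4 dpi for cxcl11.5 and cxcl11.7. The gene cxcl11.5 met the TPM minimum through ablated libraries alone. DESeq2 and limma on log2(TPM + 1) called cxcl11.5 at 4 dpi (adjusted p = 0.0426 and 0.0138), and limma voom did not (0.128).

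The levels of cxcl14, a ligand made by epithelia in mammals, differed widely within groups. It had 8.24, 0 and 0 TPM in ablated and 65.6, 3.19 and 0 TPM in unablated libraries at 2 dpi, and 0.879, 20.4 and 4.94 TPM against 19.6, 5.73 and 13.2 TPM at 4 dpi, with overlap at both times. In both groups at 2 dpi and in ablated libraries at 4 dpi, its highest library was also the one highest in photoreceptor RNA. This was not so in unablated libraries at 4 dpi. The part of photoreceptor or epithelial RNA in the cxcl14 level was not tested. The cxcr4 ligand gene cxcl12a stayed at or below 2.30 TPM everywhere. At 4 dpi its 3 ablated libraries (0 to 0.203 TPM) were below its 3 unablated ones (0.737 to 2.30 TPM). It met the TPM minimum through unablated libraries alone, so this side is not independent of that minimum. The adjusted p was 0.195 with edgeR, 0.0321 with DESeq2 and 0.105 with limma voom. The remaining CXC ligands were cxcl18a.1, which overlaps rassf4 on the other strand, cxcl18b and cxcl20, the highest single value among them being 27.2 TPM. Their levels overlapped between ablated and unablated libraries at both times, and cxcl18b was tested at neither. The overlap of cxcl18a.1 with rassf4 covers 3084 bases, its whole span, and rassf4 reached 193.8 TPM. As the library method does not mark strand, the reads of cxcl18a.1 are uncertain.

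**Figure D3:**
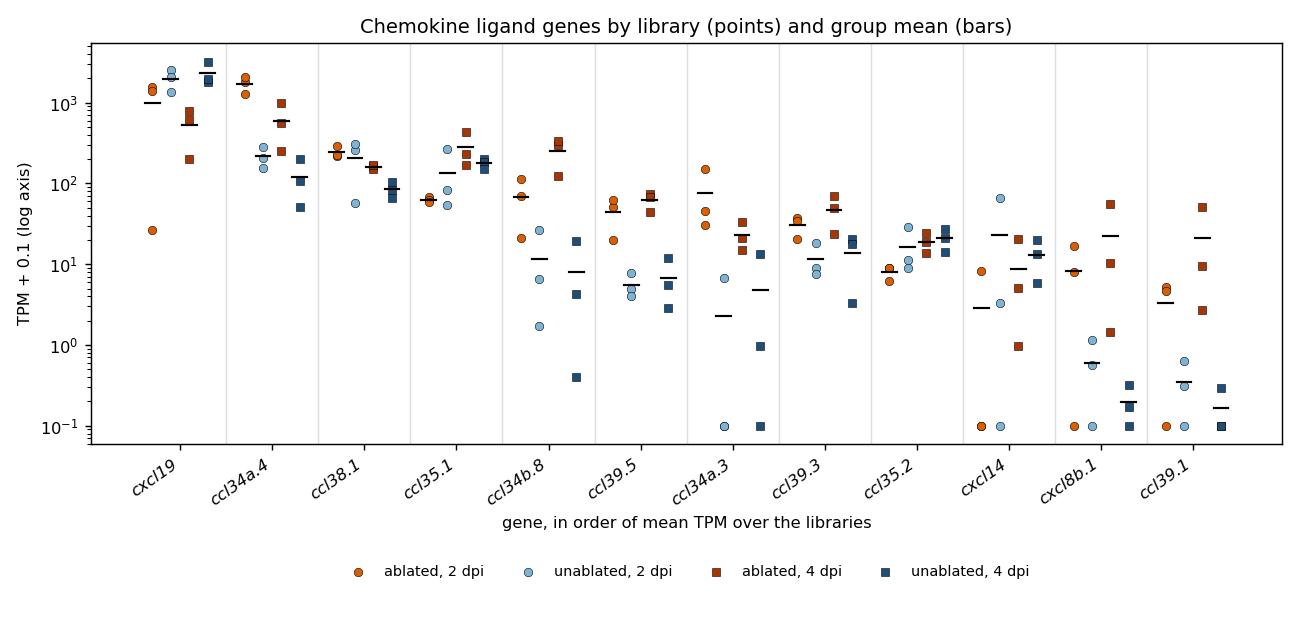
Level of the 12 chemokine ligand genes given in full, as TPM + 0.1 on a log axis (y axis), by gene (x axis), with points for libraries and bars for the means of 3 libraries. Ablated libraries lie above unablated ones at both times for ccl34a.4, ccl34a.3, ccl39.5 and ccl39.3.

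The ccl34 family includes ccl34a.4, the CC ligand gene with the highest mean over the 12 libraries. At 2 dpi ccl34a.4 (chromosome 2, 40199002 to 40199780) had 1784, 2055 and 1296 TPM in ablated and 286, 157 and 204 TPM in unablated libraries, a log2 fold change of 2.81 (SE 0.32) with an adjusted p of 0.0726. Its 4 dpi levels were 250.0, 556 and 979 TPM in ablated and 198, 51.3 and 106 TPM in unablated libraries (log2 fold change 2.38, SE 0.67, adjusted p = 0.111). The groups did not overlap at either time, and neither difference passed with edgeR on the 6 libraries of its time, while DESeq2 called both (adjusted p = 3.34e-10 and 0.000278). The 2 dpi difference also passed with limma voom (0.0213), with limma on log2(TPM + 1) (0.0223) and with edgeR fitted on all 12 libraries (0.0162). The 4 dpi difference did not pass with these (0.111, 0.0989 and 0.077).

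Its neighbour ccl34a.3, 2454 bases away on the same strand, had 44.9, 150.4 and 30.1 TPM in ablated and 6.58, 0 and 0 TPM in unablated libraries at 2 dpi. Levels at 4 dpi were 21.3, 14.9 and 33.2 TPM in ablated and 13.2, 0.877 and 0 TPM in unablated libraries. Ablated libraries were higher without overlap at both times, the adjusted p being 0.324 and 0.512 with edgeR and 0.0393 at 2 dpi with limma on log2(TPM + 1). DESeq2 (0.0894) and limma voom (0.257) did not call ccl34a.3 at 2 dpi. Reads shared between such close copies depend on how the submitters counted them, and ccl34a.4 exceeded ccl34a.3 between 11.74 and 58.5 times in the 9 libraries with counts of ccl34a.3.

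On chromosome 24 ccl34b.8 had 20.9, 69.2 and 114 TPM in ablated and 26.5, 6.49 and 1.63 TPM in unablated libraries at 2 dpi, and the groups overlapped through replicate 1. Levels at 4 dpi were 123, 298 and 338 TPM in ablated and 4.22, 0.305 and 19.3 TPM in unablated libraries, without overlap (log2 fold change 5.02, SE 1.31, adjusted p = 0.0996). The low neighbour ccl34b.9 had 5.42, 2.87 and 0.132 TPM in ablated libraries and no counts in unablated libraries at 2 dpi, where it was not tested. At 4 dpi its groups overlapped. All 4 ccl34 genes had positive fold changes at 4 dpi under TMM and under DESeq2's size factors alike. With edgeR 0 of 4 passed, while DESeq2 called ccl34a.4 and ccl34b.8 (adjusted p = 0.00164 for ccl34b.8). Limma voom did not call ccl34b.8 (0.118), and limma on log2(TPM + 1) did (0.0334).

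All 6 kept ccl39 genes lie on chromosome 25, ccl39a.10 far from the other 5. The called gene ccl39.5 (12981431 to 12982193) had 73.9, 44.4 and 67.9 TPM in ablated and 11.9, 2.77 and 5.42 TPM in unablated libraries at 4 dpi (log2 fold change 3.27, SE 0.59, adjusted p = 0.0409). The lowest ablated library stood at 44.4 TPM, above the highest unablated one at 11.9 TPM. The call was lost without ablated replicate 1 (adjusted p = 0.137) or 3 (0.157), and without unablated replicate 1 (0.0817), 2 (0.0982) or 3 (0.11). It remained without ablated replicate 2 (0.0289), and the log2 fold change over these 6 omissions was 2.92 to 3.94. Over all genes 605 passed in the full fit and 1420 without ablated replicate 2. In the omissions that lost the call, in the order given, 0, 0, 5, 38 and 24 genes passed. With no library left out, DESeq2 (adjusted p = 4.33e-06) and voom (0.0218) called ccl39.5 at 4 dpi too. So did a joint edgeR fit of both times (0.037) and the TPM-based limma fit with 1 added (0.0078). The replicate block did not (0.111). Counting the omissions, 9 of 15 alternatives called ccl39.5 at 4 dpi. At 2 dpi the gene had 19.7, 50.5 and 62.0 TPM in ablated and 4.78, 7.67 and 3.90 TPM in unablated libraries, again without overlap. Its log2 fold change was 2.84 (SE 0.60), with an adjusted p of 0.106 with edgeR, 0.00104 with DESeq2 and 0.151 with limma voom. The adjusted p was 0.0324 with limma on log2(TPM + 1) and 0.0212 with edgeR on all 12 libraries.

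A second ccl39 gene, ccl39.3, had 37.6, 34 and 20.4 TPM in ablated and 18.3, 8.92 and 7.54 TPM in unablated libraries at 2 dpi. Its 4 dpi levels were 49.8, 23.2 and 68.8 TPM in ablated and 3.24, 20.4 and 17.4 TPM in unablated libraries. Ablated libraries were higher without overlap at both times, with adjusted p of 0.409 and 0.276. The gene ccl39.1 had 2.61, 50.9 and 9.52 TPM in ablated and 0, 0.194 and 0 TPM in unablated libraries at 4 dpi. That is 506 counts against 1, a ratio per total count of 431 with an exact 95% interval of 76.9 to 17041.5. Without ablated replicate 2, the library high in photoreceptor RNA, it is 105 counts against 1, a ratio of 130.3 (22.9 to 5195). Both intervals take reads as independent and cover no spread between libraries. The difference between groups did not pass with edgeR (adjusted p = 0.0664), while DESeq2 (5.91e-05) and limma on log2(TPM + 1) (0.0449) called it and limma voom (0.166) did not. At 2 dpi ccl39.1 was not tested, with 5.14, 4.56 and 0 TPM in ablated and 0.53, 0 and 0.208 TPM in unablated libraries.

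The other ccl39 genes, ccl39.6, ccl39.7 and ccl39a.10, had group means of 1.49 to 9.12 TPM. At 4 dpi all 6 ccl39 genes were higher in ablated libraries without overlap (all genes: 15.2%), and 1 of 6 passed with edgeR (all genes: 3.71%). Of the 6, ccl39.1 met the TPM minimum through ablated libraries alone, so its side is not independent of that minimum. At 2 dpi 5 of them were tested, all 5 with positive fold changes and 2 higher without overlap (all genes: 22.1%). These directions were the same under DESeq2's size factors.

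The ccl35 genes did not share that direction at 2 dpi. At that time ccl35.1 had 67.4, 62.3 and 58.5 TPM in ablated and 83.2, 54.2 and 268 TPM in unablated libraries. Levels at 4 dpi were 435, 229 and 171 TPM in ablated and 202, 182 and 151 TPM in unablated libraries. The groups overlapped at both times (log2 fold changes -1.29 and 0.68, adjusted p = 0.368 and 0.357). Its paralog ccl35.2 had 8.98, 6.16 and 8.85 TPM in ablated and 11.2, 8.81 and 29.0 TPM in unablated libraries at 2 dpi, and 24.1, 18.5 and 13.8 TPM against 27.5, 20.8 and 14 TPM at 4 dpi. Both ccl35 genes were thus highest at 2 dpi in unablated replicate 3, and ccl35.1 exceeded ccl35.2 between 6.16 and 18 times in all 12 libraries.

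The gene ccl38.1 (chromosome 20, 39332579 to 39333799) had 219, 224 and 288 TPM in ablated and 57.2, 260.4 and 306 TPM in unablated libraries at 2 dpi. Its fold change at 2 dpi was close to 0 and its sign depended on scaling, 0.06 under TMM and -0.08 under DESeq2's size factors. Its 4 dpi levels were 164, 150.0 and 168 TPM in ablated and 65.6, 104 and 83.9 TPM in unablated libraries (log2 fold change 0.95, SE 0.23, adjusted p = 0.0731). Ablated libraries were higher without overlap at 4 dpi and the difference did not pass with edgeR, whereas DESeq2 (adjusted p = 0.0052) and limma voom (0.0188) called it. The overlapping genes ccl38.6 and ccl38a.5 had at most 7.33 TPM, ccl38.6 being lower without overlap in ablated libraries at 2 dpi (adjusted p = 0.409).

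Of the homeostatic CC ligands, which guide leukocytes in resting tissue, ccl19a.1 and ccl27a were at 1 TPM or more in only a few libraries. The highest values were 25.8 TPM for ccl19a.1, in unablated replicate 3 at 2 dpi, and 10.4 TPM for ccl27a, in unablated replicate 1 at 4 dpi. Neither was tested at 2 dpi, and at 4 dpi both overlapped. Since ccl19a.1 shares 40 bases with ube2l3b on the other strand and the library method does not mark strand, reads over those bases are uncertain.

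Among the receptors, cxcr4b, ccr9a, cxcr3.2 and ccr12a together held 80.1% to 92.8% of receptor TPM in every library. Their order by mean level differed between groups. In ablated libraries at 2 dpi it was cxcr3.2 (406 ± 73.5 TPM, SD, n = 3), cxcr4b (352 ± 75.9), ccr9a (311 ± 42.2) and ccr12a (268 ± 47.6), and in unablated libraries cxcr4b (374 ± 58.2), ccr9a (343 ± 44.9), cxcr3.2 (199 ± 57.0) and ccr12a (153 ± 23.3). In ablated libraries at 4 dpi it was cxcr4b (821 ± 213), ccr12a (542 ± 58.8), cxcr3.2 (464 ± 67.6) and ccr9a (339 ± 79.3), and in unablated libraries ccr9a (545 ± 30.3), cxcr4b (516 ± 23.7), ccr12a (424 ± 69.1) and cxcr3.2 (349 ± 32.6). Neighbours in each order overlapped over their 3 libraries, except ccr12a below cxcr4b in ablated libraries at 4 dpi, cxcr3.2 below ccr9a in unablated libraries at 2 dpi and ccr12a below cxcr4b in unablated libraries at 4 dpi.

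**Figure D4:**
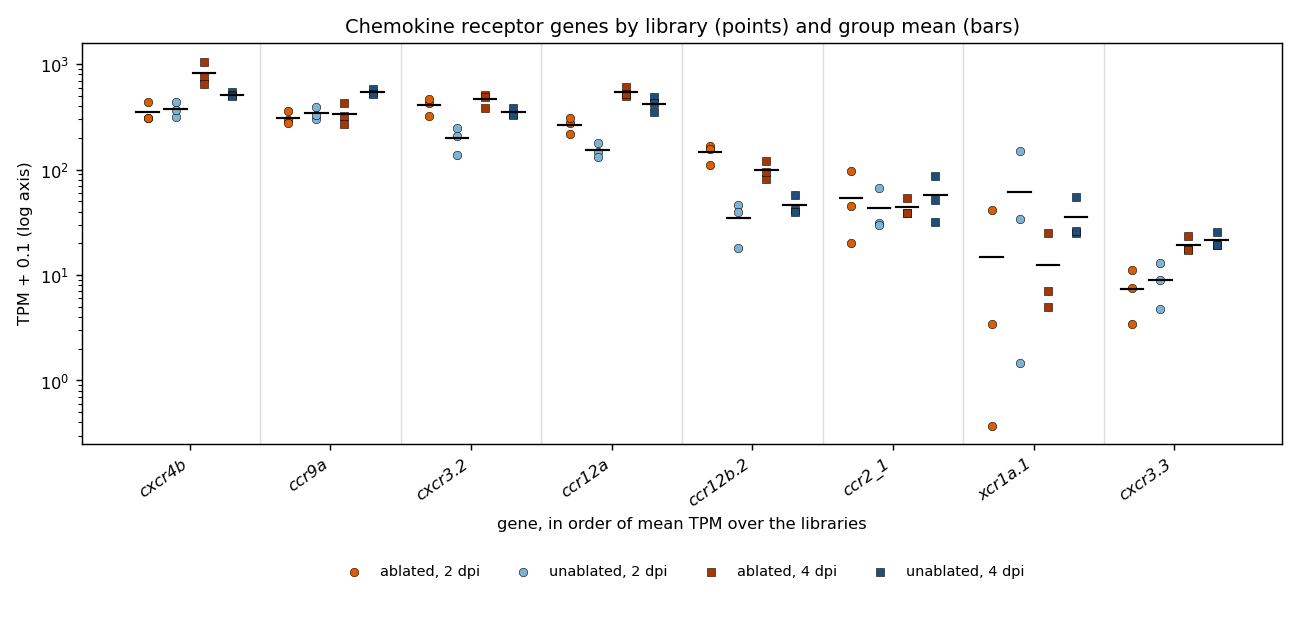
Level of the 8 chemokine receptor genes given in full, as TPM + 0.1 on a log axis (y axis), by gene (x axis), with points for libraries and bars for the means of 3 libraries. Ablated libraries lie above unablated ones at both times for cxcr3.2, ccr12a and ccr12b.2, and xcr1a.1 spans 0.272 to 150.0 TPM.

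The receptor of cxcl12, cxcr4b (chromosome 9, 10692905 to 10694930), steers migrating germ cells and the lateral line primordium in zebrafish embryos. At 2 dpi it had 308, 439.6 and 308 TPM in ablated and 318, 368 and 434 TPM in unablated libraries, with overlap. At 4 dpi it had 750.4, 1060 and 651 TPM in ablated and 542, 509 and 496 TPM in unablated libraries. All ablated libraries were higher at 4 dpi, and the log2 fold change of 0.69 (SE 0.16) missed the threshold with edgeR (adjusted p = 0.0679) and passed with DESeq2 (0.00175) and limma voom (0.0456). Its paralog cxcr4a was low, at most 9.58 TPM, and also higher without overlap at 4 dpi (adjusted p = 0.496 with edgeR and 0.0351 with limma on log2(TPM + 1)). DESeq2 (0.376) and limma voom (0.0909) did not call cxcr4a.

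The cxcr3 genes encode receptors of cxcl11 ligands, and in zebrafish cxcr3.2 takes part in macrophage recruitment while cxcr3.3 acts as a scavenging counterpart. At 2 dpi cxcr3.2 had 428, 467 and 324 TPM in ablated and 209, 249.8 and 137 TPM in unablated libraries (log2 fold change 0.87, SE 0.27, adjusted p = 0.188). At 4 dpi it had 515, 387 and 489.6 TPM in ablated and 334, 326 and 386 TPM in unablated libraries (0.45, SE 0.17, adjusted p = 0.204). It was higher in ablated libraries without overlap at both times and passed at neither with edgeR on the 6 libraries of a time, but did at 2 dpi with edgeR on all 12 libraries (0.0346) and at 4 dpi with edgeR without ablated replicate 2 (0.0332). DESeq2 and limma voom called cxcr3.2 at neither time. Of its neighbour cxcr3.3, on the same strand 9212 bases away, the levels were 11, 7.5 and 3.3 TPM in ablated and 12.8, 8.95 and 4.69 TPM in unablated libraries at 2 dpi, and 23.3, 17.7 and 17.2 TPM against 19.1, 25.3 and 19.3 TPM at 4 dpi. The cxcr3.3 groups overlapped at both times. The third gene of the cluster, deposited as cxcr3.1_2, had 0.469, 1.74 and 0.464 TPM in ablated libraries at 2 dpi and no counts in unablated ones (adjusted p = 0.132).

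All 3 ccr12 genes were higher in ablated libraries without overlap at both times (all genes: 10.7%), and 0 of 3 passed with edgeR at either. At 2 dpi ccr12b.2 (chromosome 24, 264839 to 265858) had 111, 169 and 157 TPM in ablated and 17.9, 46.4 and 39.15 TPM in unablated libraries (log2 fold change 1.91, SE 0.39, adjusted p = 0.103). At 4 dpi it had 80.8, 94.5 and 120.2 TPM in ablated and 41.5, 57.8 and 39.4 TPM in unablated libraries (1.12, SE 0.26, adjusted p = 0.0667). DESeq2 and limma voom called ccr12b.2 at both times, with adjusted p of 0.00123 and 0.0347 at 2 dpi and 0.00277 and 0.025 at 4 dpi. For ccr12a, on chromosome 2, the levels were 278, 310.1 and 216 TPM in ablated and 147, 178 and 133 TPM in unablated libraries at 2 dpi (0.65, SE 0.21, adjusted p = 0.204). At 4 dpi they were 608, 495 and 522 TPM in ablated and 352, 489 and 429.9 TPM in unablated libraries (0.38, SE 0.19, adjusted p = 0.321). The neighbour of ccr12b.2, ccr12b.1, had at most 25.2 TPM.

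The receptor of ccl25, ccr9a, which serves homing to the thymus in zebrafish, was lower in ablated libraries at 4 dpi. Its levels were 271, 321 and 426 TPM in ablated and 534, 579 and 522 TPM in unablated libraries at 4 dpi, without overlap (log2 fold change -0.65, SE 0.20, adjusted p = 0.128). At 2 dpi they were 359, 296 and 279 TPM against 392, 305 and 332 TPM, with overlap. The difference at 4 dpi did not pass with edgeR or limma voom (adjusted p = 0.0951 with voom). It passed with DESeq2 (0.00825) and with limma on log2(TPM + 1) (0.0349) and on log2(TPM + 0.1) (0.0418). The deposited gene ccr2_1, whose mammalian counterpart recruits monocytes, had 96.4, 45.3 and 20.1 TPM in ablated and 67.5, 31.4 and 29.9 TPM in unablated libraries at 2 dpi, and 38.4, 38.8 and 53.9 TPM against 31.5, 87.2 and 51.6 TPM at 4 dpi. Its groups overlapped at both times, and it exceeded the neighbouring ccr2_2 between 9.63 and 15.9 times in all 12 libraries.

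The receptor gene xcr1a.1, whose mammalian counterpart marks cross-presenting dendritic cells, differed widely between libraries of the same group. It had 3.3, 0.272 and 41.0 TPM in ablated and 1.35, 33.6 and 150.0 TPM in unablated libraries at 2 dpi. At 4 dpi it had 4.82, 25.1 and 6.95 TPM in ablated and 54.4, 25.1 and 26.3 TPM in unablated libraries (log2 fold change -1.53, SE 0.65, adjusted p = 0.253 with edgeR). The 4 dpi difference passed with limma voom (0.0396) and with edgeR without ablated replicate 2 (0.0352), and not with DESeq2 (0.124). The groups overlapped at 2 dpi, and at 4 dpi the highest ablated and the lowest unablated library were at almost the same level. The epithelial gene epcam stood beside it at 256, 41.6 and 1049 TPM in ablated and 186, 1292 and 3796 TPM in unablated libraries at 2 dpi, and at 113, 345 and 167 TPM against 1280, 1462 and 1418 TPM at 4 dpi. The libraries took the same order by epcam and by xcr1a.1 within both groups at 2 dpi and within ablated libraries at 4 dpi, but not within unablated libraries at 4 dpi. By the summed epithelial list the order was the same within both groups at 2 dpi and within neither at 4 dpi. Ablated libraries at 4 dpi held 1337, 1343 and 833 TPM of that list. In ablated libraries the keratin gene krt4 took the opposite order to xcr1a.1. Its levels there were 14.6, 29.3 and 4.54 TPM at 2 dpi and 115, 17.8 and 30.7 TPM at 4 dpi. In unablated libraries at 2 dpi krt4 took the same order as xcr1a.1. The part of epithelial cells in the xcr1a.1 level was not tested.

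**Figure D5:**
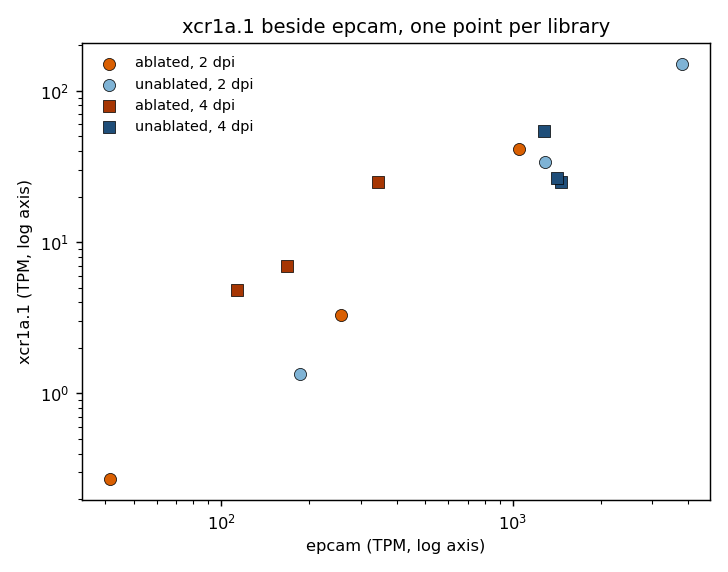
Level of xcr1a.1 (y axis, TPM, log scale) against that of epcam (x axis, TPM, log scale), with 1 point for each of the 12 libraries. The ablated library lowest in epcam (41.6 TPM) is lowest in xcr1a.1 (0.272 TPM), and the unablated library highest in epcam (3796 TPM) is highest in xcr1a.1 (150.0 TPM). The gene epcam is 1 of 21 on the epithelial list, not all of which took the order of xcr1a.1.

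The atypical receptor gene ackr3b, whose product removes cxcl12, had 0.564, 0.419 and 0.637 TPM in ablated and 2.35, 3.33 and 24.4 TPM in unablated libraries at 2 dpi. All ablated libraries were lower at 2 dpi (log2 fold change -4.39, SE 1.13, adjusted p = 0.141). At 4 dpi it had 0.0244, 3.51 and 6.03 TPM against 26.6, 27.2 and 5.20 TPM, and the groups overlapped through 1 library of each. The kept receptor genes ccr7 and ccr11.1 reached at most 5.11 and 2.12 TPM, with overlap at both times.

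Levels of ligands and their usual receptors were set side by side for pairs known from zebrafish or mammals. The cxcl12 genes summed to at most 2.34 TPM in any library, while cxcr4 and ackr3 genes summed to 309 to 1069 TPM. The ccl25 genes summed to at most 20.1 TPM, against 271 to 579 TPM of ccr9 genes, and the cxcl11 genes to at most 28.5 TPM, against 142 to 541 TPM of cxcr3 genes. The ccl19 genes reached at most 25.8 TPM and ccr7 at most 5.11 TPM, and ccl27 genes at most 10.4 TPM and ccr10 at most 0.0835 TPM. For cxcl8b genes there were up to 55.6 TPM of ligand and at most 1.99 TPM of cxcr1 and cxcr2 together. For cxcl19, ccl34a.4 and ccl39.5 no receptor, and for ccr12a no ligand, was paired here.

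Over time, in ablated eyes, 2 of 42 members passed, both receptors and both higher at 4 than at 2 dpi, against 1.29% of the 18079 genes tested (0.376% as higher). The receptor cxcr4b had 750.4, 1060 and 651 TPM at 4 dpi and 308, 439.6 and 308 TPM at 2 dpi (log2 fold change 1.13, SE 0.20, adjusted p = 0.0322). The receptor ccr12a had 608, 495 and 522 TPM at 4 dpi and 278, 310.1 and 216 TPM at 2 dpi (0.94, SE 0.20, adjusted p = 0.0497). The libraries of the times did not overlap for either gene. DESeq2, limma voom and limma on log2(TPM + 1) also called cxcr4b (adjusted p = 1.31e-06, 0.00307 and 0.0188). The same tools called ccr12a (8.01e-05, 0.00469 and 0.0222). With the replicate number as a block, cxcr4b passed (adjusted p = 0.0449) and ccr12a did not (0.0702). That number follows title dates at 2 dpi only, and across times it joins libraries of different dates. The block therefore does not adjust this comparison for date. Each of the 12 libraries was left out in turn: cxcr4b kept its call without unablated replicate 1, 2 or 3 of 2 dpi and lost it in the other 9 omissions (adjusted p up to 0.173), and ccr12a kept its call without unablated replicate 1 or 3 of 2 dpi and lost it in the other 10 (up to 0.232). Over all genes 234 passed in the full fit. Omissions that kept cxcr4b gave 131 to 448 and those that kept ccr12a 404 to 448. Omissions that lost either call gave 0 to 185.

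Other members of ablated eyes did not pass between the times with edgeR. The levels given above for ccl35.1 were higher at 4 dpi without overlap (log2 fold change 2.07, SE 0.56, adjusted p = 0.102), as were those of ccl35.2 (1.15, SE 0.48, 0.305) and cxcr3.3 (1.33, SE 0.44, 0.183). Those of ccl34a.4 were lower at 4 dpi without overlap (-1.59, SE 0.54, 0.187), and those of ccl38.1 also (-0.68, SE 0.48, 0.619). DESeq2 and limma voom called ccl35.1 (adjusted p = 0.00237 and 0.00824), ccl34a.4 (0.0487 and 0.0299) and cxcr3.3 (0.0458 and 0.0133). In all, 9 members were higher without overlap and 3 were lower, against 11.3% and 14.2% of all genes tested.

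In unablated eyes 1 of 42 members passed between the times, against 0.868% of all genes tested (0.26% as higher), and it was again ccr12a. It had 352, 489 and 429.9 TPM at 4 dpi and 147, 178 and 133 TPM at 2 dpi (log2 fold change 1.28, SE 0.20, adjusted p = 0.0309). The call remained without ablated replicate 3 of 2 dpi, unablated replicate 1 or 3 of 2 dpi or ablated replicate 2 of 4 dpi, and was lost in the other 8 omissions (adjusted p up to 0.0691). It was also lost with the replicate block (0.0662). DESeq2 (adjusted p = 4.51e-06), limma voom (0.0261) and limma on log2(TPM + 1) (0.00722) called ccr12a too. Over all genes 157 passed in the full fit, 25 to 493 in the omissions that kept the call and 14 to 76 in those that lost it. Beside this call, the summed macrophage and microglia list was 44760 to 62610 TPM at 4 dpi and 21870 to 31150 TPM at 2 dpi in unablated libraries, of which replicates 1 and 2 of 2 dpi were the ones highest in photoreceptor RNA. A large part of that sum was the gene apoeb, at 31730 to 49100 TPM at 4 dpi and 10250 to 23530 TPM at 2 dpi in these libraries. The part of the list's level and of photoreceptor RNA in the ccr12a difference was not tested. Of 42 members 6 were higher without overlap at 4 dpi (15.2% of all genes tested), and 0 were lower (5.06%). The others did not pass with edgeR. Among them cxcr3.2 (0.62, SE 0.22, adjusted p = 0.223), cxcr3.3 (1.08, SE 0.44, 0.28), ccr9a (0.47, SE 0.20, 0.302) and cxcr4b (0.26, SE 0.19, 0.612) had the higher levels, and ccr11.1 was low (0.56). With overlap, ccl38.1 was lower at 4 dpi (-1.49, SE 0.48, adjusted p = 0.174 with edgeR). DESeq2 called ccl38.1 as lower (0.0165) and cxcr3.1_2 as higher (0.0255), and limma voom called neither (0.0879 and 0.576). Without unablated replicate 1 of 2 dpi, edgeR also called ccl38.1 as lower.

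Whether the effect of ablation differed between the times was tested as an interaction in all 12 libraries. With edgeR 0 of 42 members passed, as did 0.0% of the 18079 genes tested (0 genes), DESeq2 and limma voom called 0 members too, and 3 members had an unadjusted p under 0.05 (5.86% of all genes tested). The smallest adjusted p among members with edgeR was that of cxcr4b, 0.811, at a log2 difference of 0.87 (SE 0.27), the effect at 4 dpi being the higher. For cxcr4b the adjusted p was 0.0587 with DESeq2 and 0.429 with limma voom. For ccl35.1 the log2 difference was 1.90 (SE 0.77, adjusted p = 0.821). Effects that stood out at 1 time, such as those of cxcl19, ccr9a and ccl34b.8 at 4 dpi, were therefore not shown to differ from those at the other.

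A list of genes that carry chemokine receptor signals and migration, with G protein subunits, kinases, integrins and actin regulators, held 93 names, of which 80 were found. At 2 dpi 0 of 75 tested passed. At 4 dpi 2 of 77 passed, both lower in ablated libraries, against the 3.71% of all genes given above. The G protein gamma subunit gene gng2 averaged 49.4 ± 16.9 TPM in ablated and 148 ± 2.64 TPM in unablated libraries (SD, n = 3 each; log2 fold change -1.57, SE 0.23, adjusted p = 0.0299). The complement receptor integrin gene itgam averaged 7.82 ± 4.27 TPM in ablated and 41.0 ± 3.59 TPM in unablated libraries (-2.39, SE 0.36, adjusted p = 0.0308). Both genes were lower in ablated libraries at 4 dpi together with the epithelial list and with epcam, given above, and the part of epithelial cells in their levels was not tested. The list's median log2 fold change was 0.19 at 2 dpi and 0.09 at 4 dpi, against -0.12 and -0.04 for all genes tested. Between the times and in the interaction 0 of 78 passed.

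Not kept were 30 genes with a matching name. Of these, 5 had no counts in any library (cxcl11.1, cxcl11.8, cxcl32b.1, ccl27b and ccl38a.4). The other ligands were ccl19a.2, ccl19b, ccl20b, ccl25a, ccl25b, ccl33.2, ccl34b.3, ccl34b.4, ccl36.1, ccl39.2, ccl39.4, ccl44, cxcl8b.3 and cxcl12b, and the receptors were ccr8.1, ccr9b, ccr10, cxcr1, cxcr2, cxcr3.1_1, cxcr5, xcr1b.1, ackr3a, ackr4a and ackr4b. Just inside the limit, with 1 TPM in 3 libraries, were cxcl18b, ccl27a, cxcl12a and ccr11.1, the lowest of their highest values being 2.12 TPM, in ccr11.1. Just outside, with 1 TPM in 2 libraries, were ccl36.1, ccl44, ccl25b, ccl20b and ccl39.4, with highest values of 1.04 to 20.1 TPM. At a limit of 1 library 51 genes would have been kept and at 6 libraries 33, and 16 genes reached 1 TPM in all 12.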

How the data were processed

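RNA-seq was analysed in 12 libraries made with SMART-Seq HT and Nextera XT, a method that does not mark strand. Per the file headers, the authors deposited counts per gene and TPM values, on GRCz11 per the submitters' processing notes. The aligner and counter were not given in the sources used here. Libraries held 19791633 to 38935355 counts. Amplified reads are not independent molecules, while the counting intervals take them as independent. Such intervals can be too narrow even for counting error, and they cover no spread between libraries. No per-sample column was left unused.

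Counts of all genes were fitted with edgeR 4.0.16 (TMM, filterByExpr, robust quasi-likelihood, Benjamini-Hochberg adjustment at 0.05) in R 4.3.3, each time alone for ablation and all 12 libraries for contrasts between times and the interaction. Fits were also run on simulated counts with the same dispersion, a measure of spread, for every gene. These libraries spread less evenly, so that run does not show how the fits perform here. DESeq2 1.42.0, limma 3.58.1 (voom with quality weights, and log2(TPM + 1) or log2(TPM + 0.1) at 1 TPM in 3 libraries), other scaling and filters (none, or 1 CPM and a mean of 50 counts), a replicate block and omission of libraries were alternatives. Given in full were members called in any comparison or with a mean of at least 20 TPM in a group. Members and lists were chosen with earlier results of these data known. All 42 identifiers matched the reference name table, where 11 carry another symbol.

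Same-numbered libraries at 2 dpi share a title date (3 dates) and so are paired. What the date records is not given. After removal of group means their correlations over genes were 0.63, -0.01 and 0.60 (other pairs -0.64 to 0.30). All libraries at 4 dpi carry 1 date, and were not taken as paired. The 9 marker lists served to describe the sorts. Besides those given with the results, summed TPM in ablated and unablated libraries was 6.21 to 14.3 and 6.83 to 50.1 at 2 dpi and 7.90 to 13.5 and 29.9 to 35.7 at 4 dpi for lymphocytes, 19.4 to 36.3 and 7.38 to 2521 and then 6.92 to 49.3 and 34.4 to 82.0 for the RPE, 932 to 4441 and 1718 to 5939 and then 2880 to 4833 and 5089 to 6040 for Müller glia, 22.8 to 41.5 and 23.4 to 44.7 and then 48.4 to 80.9 and 34.9 to 74.4 for vessels, at most 48.8 for erythrocytes, and 21990 to 36930 and 21870 to 31150 and then 35040 to 51960 and 44760 to 62610 for macrophages and microglia. The Müller glia sum was mostly the gene glula, at 907 to 5853 TPM. The next highest gene of that list, glulb, reached at most 446 TPM, and gfap at most 1.39 TPM. Which cells the glula RNA came from was not tested.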

Additional observations from a re-analysis of the deposited data

How the results depend on the processing

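The number of members called depended on the tool more than on scaling or filters. At 2 dpi, where edgeR called 0, DESeq2 called 3 (11.3% of all genes with an adjusted p), limma voom 2 (6.94%), edgeR fitted on all 12 libraries 4 (6.32%), and limma 4 on log2(TPM + 1) (6.39%) and 3 on log2(TPM + 0.1) (5.67%). At 4 dpi, against 1 member and 3.71% of all genes, these were DESeq2 12 (9 higher, 3 lower; 14.4%), voom 6 (9.5%), log2(TPM + 1) 8 (12.2%), log2(TPM + 0.1) 7 (9.96%) and the replicate block 0 (0.0%). From 2 to 4 dpi in ablated eyes, against 2 (1.29%), DESeq2 called 5 (8.34%), voom 7 (2071 of all genes) and the replicate block 1 (0.747%). In unablated eyes, against 1 (0.868%), DESeq2 called 3 (8.2%) and the replicate block 0 (0.0608%). The cause of these differences was not tested. The interaction gave 0 under every alternative, including a block nested in time that was chosen after seeing the data. Other size factors, no filter and a strict one left all 5 counts as they were. Leaving out 1 library at a time gave 0 to 0 members at 2 dpi, 0 to 5 at 4 dpi, 0 to 3 and 0 to 2 between times in ablated and unablated eyes, and 0 for the interaction. Over all genes the same omissions gave 0 at 2 dpi, 0 to 1420 at 4 dpi, 0 to 448 and 14 to 493 between times, and 0 to 19 for the interaction. The replicate block at 2 dpi, where numbers follow dates, called 0 members. At 4 dpi, where same-numbered libraries correlated at -0.19, -0.43 and -0.15 (other pairs -0.27 to 0.36) and share only a number, the block gave ccl39.5 an adjusted p of 0.111. Between times, where a number joins libraries of different dates, the block gave cxcr4b 0.0449 and ccr12a 0.0702 in ablated eyes and ccr12a 0.0662 in unablated eyes. Directions were followed for 34 pairs of a gene given in full and a comparison in which it was called or its groups did not overlap. That choice itself favours a stable direction. Of 593 values under alternatives for these pairs, 507 kept direction and side of the threshold, 35 fell short of it, 51 newly passed it and 0 reversed. Members outside the choice did change sign, such as cxcl14 at 2 dpi (log2 fold change -12.6 to 9.62 over alternatives). DESeq2's size factors moved the median log2 fold change of all genes by -0.16 at 2 dpi, -0.12 between times in unablated eyes and 0.21 in the interaction. Members at under about 1 TPM rest on few counts, and nothing can be read from their folds.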
